A study of Mus musculus with 6 samples.

Results

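The interleukin 17 receptors Il17ra, Il17rb, Il17rc, Il17rd and Il17re, and Chdh, Actr8 and Cacna1d, which lie next to Il17rb on mouse chromosome 14, were described in mouse HoxB8 neutrophil progenitors. The members are the probe sets whose platform annotation carries 1 of these symbols: 8 of the 22206 probe sets of the table, 1 per gene, or 8 of its 19505 named genes, of which 5 are receptors and 3 are neighbours of Il17rb. They were chosen by gene family and position, with the measured differences between K313 and WT arrays already known. Total RNA was profiled on Affymetrix Clariom S mouse arrays on day 1 in differentiation medium. In 3 samples the cells expressed the AML-associated K313 form of C/EBPα (K313), and in 3 they expressed wild-type C/EBPα (WT). C/EBPα is a transcription factor needed for granulocytes to form, and by its title the series concerns what the K313 mutation does to C/EBPα activity. Cells of both groups were Hoxb8 progenitors, a type of cell kept immature by the transcription factor Hoxb8. Whether it still did so at sampling on day 1 is not stated. Both groups were grown in Optimem Glutamax with FCS, Pen/Strep, β-mercaptoethanol and SCF supernatant. The labels do not state the vector or promoter behind either form, the state of the cells' own Cebpa gene, or whether a group is 1 clone. They also do not say whether replicates were separate cultures, so the p-values here rest on a spread between samples that may be technical.

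Cytokines of the interleukin 17 family signal through paired receptor chains. Il17ra is the shared chain: with Il17rc it binds IL-17A and IL-17F, with Il17rb it binds IL-25 (the product of Il25, also called IL-17E), and with Il17re it binds IL-17C. The chains recruit the adaptor Act1, encoded by Traf3ip2, and then Traf6, which leads to NF-kB and MAP kinase signalling and to longer-lived messenger RNAs of cytokines and chemokines. Il17rb is best known from cells of type 2 immunity that respond to IL-25, and its older name Evi27 comes from a site of viral integration in mouse myeloid leukaemia. Il17rd, also called Sef, is best known as an inhibitor of FGF receptor signalling.

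Il17rb and Chdh stand head to head. In the RefSeq promoter table (GRCm38.p6; each window covers 250 bases before and 50 after a start), the Il17rb start on the minus strand and the first Chdh start on the plus strand are 104 bases apart, and their windows share 203 bases. The Il17rb window is chr14:30008847-30009146 on the minus strand and the Chdh window is chr14:30008750-30009049 on the plus strand. Both are printed because the 2 genes were the members that were much higher in K313. Each is given 5′ to 3′ on its own strand, and capitals mark the shared bases, which are reverse complements of each other.
Il17rb: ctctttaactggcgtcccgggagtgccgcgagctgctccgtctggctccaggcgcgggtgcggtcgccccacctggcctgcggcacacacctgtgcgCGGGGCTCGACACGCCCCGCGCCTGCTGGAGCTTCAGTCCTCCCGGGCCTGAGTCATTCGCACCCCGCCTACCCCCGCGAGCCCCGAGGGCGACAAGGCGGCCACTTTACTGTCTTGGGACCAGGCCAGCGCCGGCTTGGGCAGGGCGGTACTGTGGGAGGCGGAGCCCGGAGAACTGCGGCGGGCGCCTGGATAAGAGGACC
Chdh: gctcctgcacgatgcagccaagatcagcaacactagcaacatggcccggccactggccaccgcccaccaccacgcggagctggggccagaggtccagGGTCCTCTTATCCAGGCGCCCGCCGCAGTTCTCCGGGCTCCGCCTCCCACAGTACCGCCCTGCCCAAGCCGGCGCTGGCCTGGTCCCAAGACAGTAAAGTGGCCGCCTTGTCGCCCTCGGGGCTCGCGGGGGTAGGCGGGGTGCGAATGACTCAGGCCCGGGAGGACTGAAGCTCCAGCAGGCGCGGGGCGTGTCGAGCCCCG

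The Il17rb window is 72.0% G and C with 32 CpG dinucleotides, and the Chdh window is 70.3% G and C with 26, against medians of 52.7% and 7 over the 32851 windows of the table. Of the motifs searched on both strands, neither window holds the palindromic C/EBP letters TTGCGCAA (found in 0.183% of all windows), the looser C/EBP letters TTGCNNAA (10.8%, a pattern that includes the first), the GATA letters AGATAA (11.2%), the PU.1 letters GAGGAAGT (3.2%) or the STAT letters TTCNNNGAA (8.3%). The shared stretch holds 1 match to the AP-1 letters TGANTCA, which 7.81% of all windows hold. It reads TGAGTCA, ends 98 bases before the Il17rb start and overlaps the Chdh start. This motif was searched after the sequence had been read. The table gives 2 further Chdh starts downstream, and the Chdh probe set is annotated to 3 transcripts, so its values do not say which start was used. Il17rc, Il17rd, Il17re and Cacna1d also have windows in the table, and none of the motifs named here is found in them. The downstream Chdh windows hold 1 match, to the STAT letters.

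Across all probe sets, arrays correlated at 0.995 to 0.996 within K313 and at 0.994 to 0.995 within WT (Pearson's r across probe sets, not independent replicates). WT replicate 3 stood nearer to the K313 arrays than the other WT arrays did, at 0.987 to 0.989 against 0.983 to 0.986, and values without it are given below for the members that passed, Eif2s3y and the genes nearest to Il17rb. Of 22206 probe sets, 1720 passed an adjusted p of 0.05 in the limma fit, which is 7.75%, with 3.77% higher and 3.97% lower in K313. The groups did not overlap in 21.9% of probe sets, 11% with K313 above WT and 10.9% with K313 below WT. Besides the C/EBPα form, the groups differed in Hoxb8, with a difference of -4.64 ± 0.25 (log2, SE, n = 3 per group), and in the Y-linked gene Eif2s3y, higher in K313 by 7.88 ± 0.83. What these differences and the form each contribute cannot be told apart. Eif2s3y read 12.37, 12.09 and 12.24 in K313 and 3.11, 2.93 and 7.03 in WT, so WT replicate 3 stood far above the other WT arrays, and without it the difference was 9.21 ± 0.18. The Cebpa transcript read 13.85, 13.90 and 14.45 in K313 and 14.53, 14.85 and 14.35 in WT (difference -0.51 ± 0.21, limma adjusted p = 0.212). It is not stated whether its probe set sees the introduced forms, nor whether the Hoxb8 probe set sees an introduced Hoxb8. The lists of markers used to check the label gave a mean log2 level per array of 13.80 to 13.98 in K313 and 13.11 to 13.13 in WT for 9 neutrophil progenitor genes. Elane, Prtn3, Ctsg and Ms4a3 rose (4 of the 9), while Mpo, Cebpe, Gfi1, Fcnb and Cd63 did not pass. Lists of other lineages, described below, also lay above the array medians of 5.01 to 5.13. Basophil and mast cell markers averaged 10.38 to 10.71 in K313 and 11.33 to 11.64 in WT. Eosinophil markers averaged 8.78 to 9.30 in K313 and 10.01 to 10.48 in WT. Fcer1a and Ccr3 of these lists were near the low end in both groups. Of 6 later neutrophil markers, Ltf, Camp, Retnlg and Mmp9 had means at or under 5 in both groups. Of the other two, the chemokine receptor gene Cxcr2 fell, with 8.24, 8.40 and 8.43 in K313 and 10.52, 10.34 and 10.44 in WT (-2.08 ± 0.15; limma adjusted p = 6.45e-06). The granule protein gene Ngp did not pass, with 4.24, 4.59 and 6.24 in K313 and 3.30, 3.91 and 3.70 in WT (1.39 ± 0.42; limma adjusted p = 0.0752).

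Since these values were known when the members were chosen, their differences are a description and are given without p-values. Among the 8 probe sets, 3 were among those past the threshold, Il17rb and Chdh higher and Il17ra lower in K313, where 7.75% of all probe sets passed, and 4 had groups that did not overlap, as in 21.9% of all probe sets. Nothing is read from these counts. All levels are log2 RMA values of 1 probe set and are not comparable between genes. The array medians were 5.01 to 5.13, and a group mean of 5 or less is called near the low end here, since no detection calls were used.

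Il17rb, the receptor chain that binds IL-25 and IL-17B, read 10.58, 10.60 and 10.72 in K313, against 4.92, 5.09 and 5.78 in WT. All K313 arrays were far above all WT arrays, the K313 arrays were nearly alike, and WT replicate 3 was the highest of its group. The means were 10.63 ± 0.08 in K313 and 5.26 ± 0.46 in WT (SD, n = 3), a difference of 5.37 ± 0.22 (log2; SE), or 41.4-fold, which ranked 19 among the rises over all 22206 probe sets. WT lay close to the array medians, a range in which RMA values compress folds. Without WT replicate 3 the difference was 5.63. For Chdh and Il17ra, described next, it was 3.60 and -0.85. In bulk RNA, fewer cells of a type and less RNA per cell cannot be told apart, so the values do not say in what share of the cells Il17rb was present.

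Chdh, choline dehydrogenase, oxidises choline in mitochondria on the way to betaine. It read 11.22, 10.95 and 11.37 in K313, against 7.31, 7.85 and 7.84 in WT. The groups were well apart, but unlike Il17rb the WT arrays were above the array medians. The means were 11.18 ± 0.21 in K313 and 7.67 ± 0.31 in WT (SD, n = 3), a difference of 3.51 ± 0.19 (SE), or 11.4-fold, ranked 70 among the rises.

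Il17ra, the shared signalling chain of the family, read 10.40, 10.76 and 10.67 in K313, against 11.24, 11.69 and 11.61 in WT. It was lower in K313 on every array, with less than a log2 unit between the group means and levels well above the array medians in both groups. The means were 10.61 ± 0.19 in K313 and 11.51 ± 0.24 in WT (SD, n = 3), a difference of -0.90 ± 0.18 (SE), and WT was 1.87-fold above K313. Il17rb and its partner chain Il17ra thus differed in opposite directions in the same RNA samples.

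The other receptor chains lay near the low end in both groups. Il17rc, the partner of Il17ra for IL-17A and IL-17F, read 4.01, 4.38 and 4.30 in K313 and 4.34, 3.97 and 3.64 in WT, a difference of 0.25 ± 0.20 (SE). Il17re, the IL-17C receptor chain, read 3.19, 3.15 and 3.25 in K313 and 2.90, 3.30 and 3.17 in WT, a difference of 0.07 ± 0.16. Il17rd read 3.33, 3.78 and 3.46 in K313 and 3.57, 3.50 and 3.33 in WT, a difference of 0.06 ± 0.17. The groups overlapped for all 3 genes, and at these levels presence of the transcript cannot be told from background.

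The remaining neighbours of Il17rb were not among the probe sets past the threshold. Actr8, an actin-related subunit of the INO80 chromatin remodelling complex, read 11.70, 11.69 and 11.57 in K313 and 11.85, 11.71 and 11.77 in WT. The groups did not overlap, with SDs of 0.07 in K313 and 0.07 in WT. The difference was -0.12 ± 0.15 (SE). That SE is from the limma fit, which draws on the spread of all probe sets, so it is not that of Actr8 alone. Cacna1d, a pore-forming subunit of L-type calcium channels, read 3.34, 3.43 and 3.17 in K313 and 3.56, 2.93 and 3.46 in WT, with overlap and near the low end throughout. The plot of members by array shows the split between Il17rb and Chdh and the other members.

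**Figure D1:**
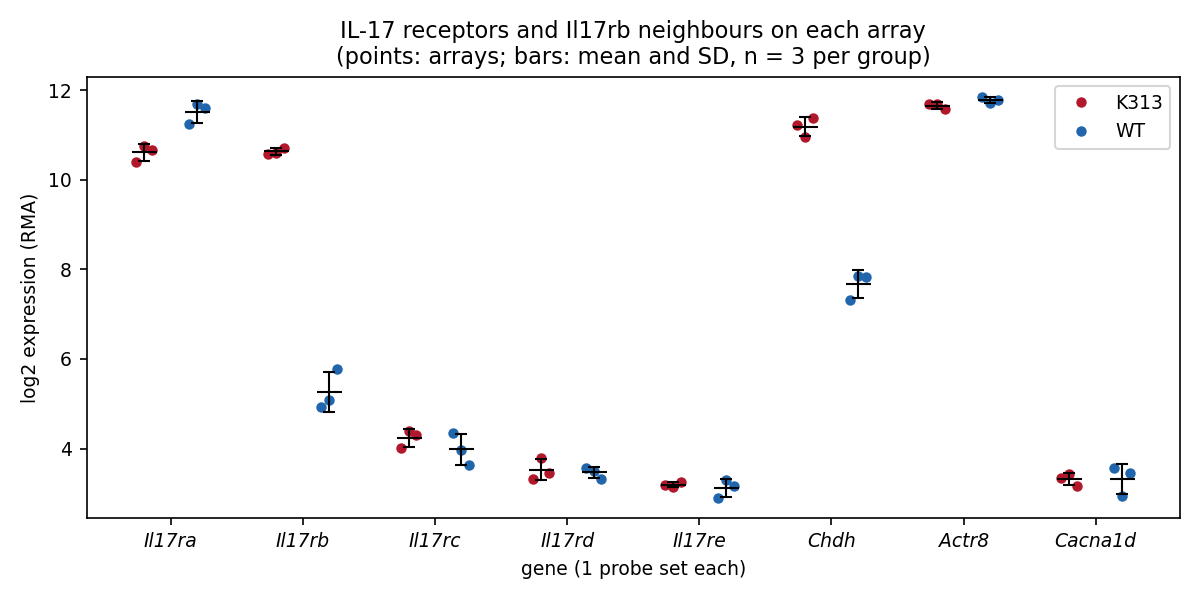
Log2 expression (vertical axis, RMA units) of the 8 probe sets (horizontal axis) on each array, K313 in red left of WT in blue, with bars for the mean and SD of 3 arrays. Il17rb lies at 10.58 to 10.72 in K313 and 4.92 to 5.78 in WT, Chdh at 10.95 to 11.37 in K313 and 7.31 to 7.85 in WT, and Il17ra is lower in K313. Heights are not comparable between genes.

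The locus was then read outwards, taking the 5 nearest genes with a probe set on either side of Il17rb in the gene order of the RefSeq table. Of these 10 genes Chdh alone passed the threshold, where 7.75% of all probe sets passed. The 7 that are not members had differences of -0.44 to 0.19, and 0 passed in limma (0 also at an unadjusted p under 0.05). Counts this small cannot be told apart from that share. Selenok, a selenoprotein of the endoplasmic reticulum on the far side of Actr8, read 13.17, 12.94 and 13.06 in K313 and 13.15, 13.30 and 13.22 in WT (difference -0.17 ± 0.15, limma adjusted p = 0.666). Dcp1a, a decapping factor beyond Cacna1d, read 9.91, 9.68 and 9.75 in K313 and 10.24, 9.76 and 9.90 in WT (-0.19 ± 0.17, limma adjusted p = 0.673). Prkcd, a protein kinase C, differed by -0.28 ± 0.16 (limma adjusted p = 0.414), and Wnt5a, a Wnt ligand at the edge of the region, by -0.44 ± 0.23 (0.371). These 4 names were picked after their values were seen. Among the genes measured here, the large differences were those of Il17rb and Chdh, 2 adjacent genes. The nearest measured gene on each side of the pair did not pass.

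**Figure D2:**
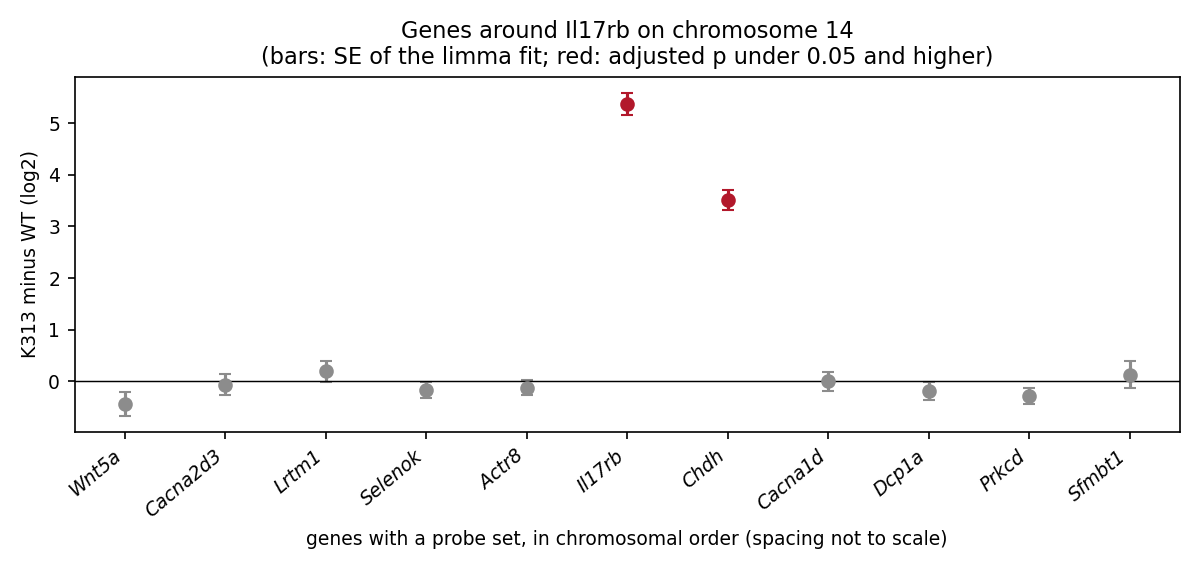
Difference K313 minus WT (vertical axis, log2, bars are the SE of the limma fit) of the genes around Il17rb in chromosomal order (horizontal axis, spacing not to scale). Il17rb at 5.37 and Chdh at 3.51 stand above a row of genes between -0.44 and 0.19.

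After the values of Il17rb and Chdh had been seen, head-to-head gene pairs were counted over the whole array: genes on opposite strands whose RefSeq promoter windows overlap and whose starts point away from each other, each gene with 1 probe set. There were 606 such pairs. In 543 neither gene passed, in 59 a single gene did, and in 4 both did (0.66% of pairs). In each of these 4 pairs the genes differed in the same direction as each other. Over all probe sets 7.75% passed. With so few pairs, nothing is read from this count or from the shared direction. Il17rb and Chdh, with differences of 5.37 and 3.51, were the pair with the largest smaller rise, and the 1 pair in which both genes were higher in K313 by at least 1 log2 unit. Dhrs1 and Nop9 were the other pair that was higher in K313 (1.29 and 0.87). Tmem176b and Tmem176a, a pair of related membrane proteins, were lower in K313 (-2.19 and -1.80), as were Trip4 and Csnk1g1 (-0.69 and -0.63). Since Il17rb and Chdh were picked for their values, their place in this ranking is a description with no test.

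**Figure D3:**
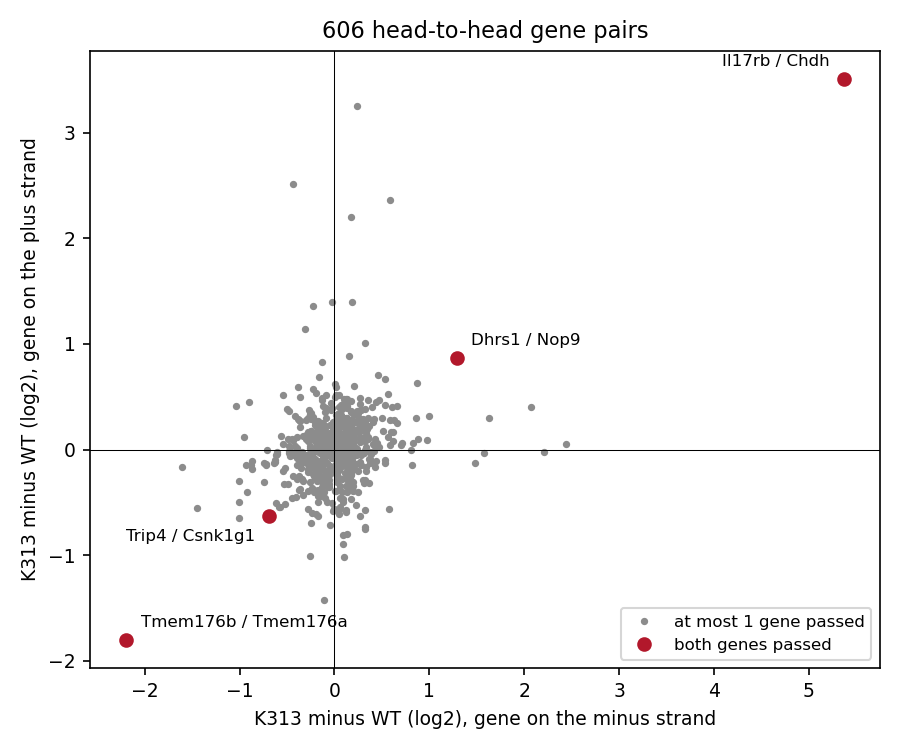
Difference K313 minus WT (log2) of the 2 genes of each of 606 head-to-head pairs, with the minus-strand gene on the horizontal axis and the plus-strand gene on the vertical axis; red pairs are those in which both genes passed. Il17rb and Chdh, at 5.37 and 3.51, lie apart from the other pairs, and Tmem176b and Tmem176a lie lowest among the pairs in which both genes passed.

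Around the other receptor genes the 3 nearest measured genes on either side were taken. Of 18 such genes that are not members, 1 passed (against 7.75% of all probe sets): Hesx1, a homeobox repressor next to Il17rd. It read 5.53, 5.67 and 5.84 in K313 and 4.85, 5.18 and 5.06 in WT, close to the array medians (difference 0.65 ± 0.16, SE, n = 3; limma adjusted p = 0.0337). Its call was lost when any array other than WT replicate 2 was left out (limma adjusted p up to 0.131). The neighbours of Il17ra and those of Il17rc and Il17re, which are adjacent on chromosome 6, did not pass, with Jagn1 the nearest to the threshold (0.41 ± 0.18, limma adjusted p = 0.280).

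The genes whose values over the 6 arrays lay nearest to those of Il17rb, by Euclidean distance after each probe set's own mean was subtracted, were Ffar2 (distance 0.52 log2 units), Ica1 (0.55), Bace1 (0.62), Cd48 (0.81) and Simc1 (0.82). Chdh was farther off at 2.34, with its smaller difference. Ffar2, a receptor for short-chain fatty acids, read 12.69, 12.57 and 12.71 in K313 and 6.86, 6.90 and 8.26 in WT. Ica1 read 9.52, 10.03 and 9.90 in K313 and 3.90, 4.06 and 5.27 in WT, and Bace1, the beta-secretase, read 11.77, 11.53 and 11.42 in K313 and 5.47, 5.85 and 7.03 in WT. In these 3 genes, as in Il17rb, WT replicate 3 was the highest WT array, and it lay further above the other WT arrays than it did for Il17rb. Because the genes were picked for closeness on these same arrays, the shared pattern is in large part set by the choice. With 2 groups, the distance mostly picks genes with a difference of similar size. Without that array, an alternative added after the data were seen, 4 of the 5 genes were still among the 5 nearest, Ak4 (distance 0.35) took the place of Simc1, and the differences of Ffar2, Ica1, Bace1, Cd48 and Simc1 were 5.78, 5.84, 5.91, 5.47 and 5.12. Nearest to Chdh were Slitrk2 (0.58), C1rl (0.58) and Zfp760 (0.59), and nearest to Il17ra were Zfp219 (0.23), Fat1 (0.27) and Igll1 (0.28).

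**Figure D4:**
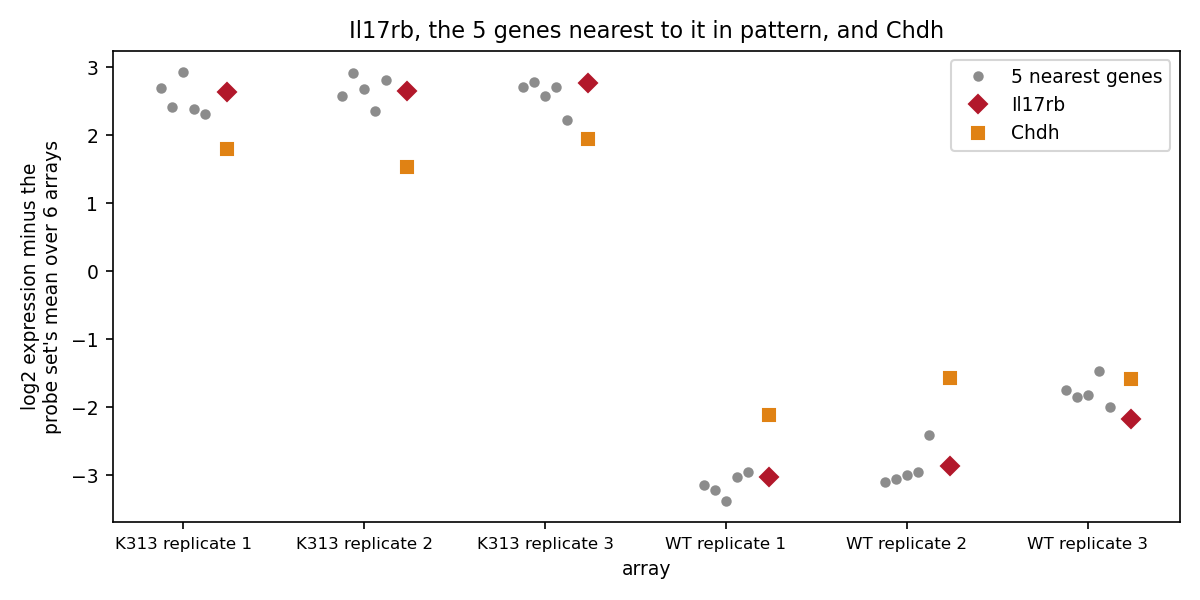
Log2 expression after subtraction of each probe set's mean over 6 arrays (vertical axis) on each array (horizontal axis), for Il17rb (red diamonds), its 5 nearest genes (grey) and Chdh (orange squares). Every gene is above 0 on the K313 arrays and below 0 on the WT arrays, and WT replicate 3 is the highest WT array for Il17rb and the 5 grey genes. The grey genes were picked for closeness to Il17rb on these arrays, so their likeness is in large part set by that choice.

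The rest of the pathway was read from lists chosen with earlier results of these data known. Of the 6 IL-17 ligands 0 passed in limma (0 also at an unadjusted p under 0.05), where 7.75% of all probe sets did. Their median difference was 0.05, against 0.02 over all probe sets. Il25, which encodes the ligand of Il17rb, read 3.43, 3.56 and 3.56 in K313 and 3.94, 3.51 and 3.45 in WT (difference -0.12 ± 0.17; limma adjusted p = 0.817), near the low end in both groups. Il17b, the other ligand of Il17rb, read 5.61, 5.58 and 5.46 in K313 and 5.39, 5.74 and 5.37 in WT (0.05 ± 0.16; 0.931 in limma). Il17a, Il17c, Il17d and Il17f had differences of 0.16, 0.06, 0.26 and 0.05, with no array above 4.23. A missed threshold does not show that the ligand levels were alike.

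Of 15 measured adaptor and kinase genes, 1 rose and 1 fell (13.3%, against 7.75% of all probe sets), with a median of 0.03. Tab2, which links Traf6 to the kinase Tak1, read 11.75, 11.65 and 11.59 in K313 and 12.29, 12.73 and 12.19 in WT (difference -0.74 ± 0.18; limma adjusted p = 0.0259). Ikbke, the inducible kinase IKKε that phosphorylates Act1, read 8.24, 8.15 and 8.13 in K313 and 7.21, 7.85 and 7.44 in WT (0.67 ± 0.18; limma adjusted p = 0.04998). Ikbke sat at the threshold and was lost when any array other than WT replicate 2 was left out (limma adjusted p up to 0.161). Tab2 was lost without WT replicate 2 and without each of the K313 arrays (limma adjusted p up to 0.0979). The central adaptors, named after their values were seen, did not pass: Traf3ip2 differed by 0.09 ± 0.24 at levels close to the array medians, and Traf6 by 0.26 ± 0.20.

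Of 9 feedback and RNA stability regulators, 3 fell and 0 rose (33.3%, against 7.75% of all probe sets), with a median of -0.10. Tnfaip3, the ubiquitin-editing enzyme A20 that restrains NF-kB and IL-17 signalling, read 7.05, 6.37 and 6.78 in K313 and 8.98, 7.96 and 8.49 in WT (difference -1.74 ± 0.26; limma adjusted p = 0.00123). Zc3h12a, the ribonuclease Regnase-1 that degrades cytokine messenger RNAs, read 6.84, 6.85 and 7.08 in K313 and 8.45, 7.67 and 7.56 in WT (-0.97 ± 0.23; limma adjusted p = 0.0231). Btrc, a ubiquitin ligase subunit, changed by -0.66 ± 0.18 (limma adjusted p = 0.0472). The Tnfaip3 call held in each fit that left out an array. Zc3h12a was lost without each of the K313 arrays (limma adjusted p up to 0.0905), and Btrc in every fit that left out an array (up to 0.196), so that the list count was 1 to 2 there.

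Known IL-17 target genes moved in both directions. Of 25 probe sets, 3 rose, 4 fell and 18 did not pass, with a median of 0.08. The share called was 28%, against 7.75% of all probe sets. Il6, the cytokine, read 11.17, 10.68 and 10.91 in K313, against 13.21, 13.25 and 13.18 in WT (difference -2.29 ± 0.17; limma adjusted p = 6.48e-06). Tnf fell by 1.91 ± 0.26 (limma adjusted p = 0.000682) and Ptgs2, the inducible cyclooxygenase, fell by 2.0 ± 0.34 (0.00343 in limma) to levels near the low end. The neutrophil products went the other way. Lcn2, an iron-scavenging granule protein, read 14.20, 13.46 and 14.24 in K313 and 11.94, 12.07 and 11.62 in WT (2.09 ± 0.23; limma adjusted p = 0.000109). S100a8 and S100a9, the subunits of calprotectin, rose by 4.0 ± 0.63 and 2.68 ± 0.55 (limma adjusted p = 0.00182 and 0.0102), with arrays at 7.37 to 10.59 in K313 and 4.24 to 5.51 in WT for S100a8, and at 7.48 to 10.14 in K313 and 5.52 to 6.89 in WT for S100a9. Both were lost with an intensity trend and robust prior (0.0583 and 0.0641 in limma). The fourth fall was Zc3h12a, which also stands on the feedback list. The chemokines Cxcl1 and Cxcl2 and the growth factor Csf3, named after their values were seen, lay near the low end in both groups, with differences of -0.13, 0.11 and -0.30.

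Of 19 probe sets for IL-25 and type 2 immunity, 4 fell and 0 rose (21.1%, against 7.75% of all probe sets), with a median of -0.18. Il5ra, the interleukin 5 receptor of eosinophils, read 9.05, 8.46 and 8.63 in K313 and 11.21, 11.85 and 11.73 in WT (difference -2.88 ± 0.21; limma adjusted p = 7.35e-06). Il4, the type 2 cytokine, read 4.70, 4.84 and 5.31 in K313 and 7.16, 6.38 and 6.12 in WT (-1.60 ± 0.26; 0.0025 in limma). The Il4 mean in K313 was 4.95, near the low end. Crlf2, the receptor chain for TSLP, changed by -1.13 ± 0.15 (limma adjusted p = 0.000632) and Il4ra by -0.69 ± 0.15 (0.0153 in limma). The Il4ra call was lost without WT replicate 3, K313 replicate 1 or K313 replicate 2 (limma adjusted p up to 0.0666). The other 15 probe sets of this list did not pass.

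Markers of cells that carry Il17rb or its partners were set beside this. For comparison, 3.77% of all probe sets passed as higher and 3.97% as lower in K313. Of 10 basophil and mast cell markers, 6 fell and 1, Prss34, rose. The 6 were Cd200r3 (-4.03 ± 0.23, SE), Gata1 (-3.69 ± 0.24), Mcpt8 (-1.63 ± 0.22), Il4 (-1.60 ± 0.26), Gata2 (-1.47 ± 0.19) and Hdc (-0.74 ± 0.17). Cpa3, Ms4a2 and Fcer1a did not pass, with Fcer1a near the low end in both groups. The mean log2 level of this list was 10.38 to 10.71 in K313 and 11.33 to 11.64 in WT. Of 5 eosinophil markers 3 fell (mean level 8.78 to 9.30 in K313 and 10.01 to 10.48 in WT), with Ccr3 near the low end. The 9 probe sets of 7 markers of type 2 innate lymphoid cells gave 4.48 to 4.66 in K313 and 4.60 to 4.80 in WT, 0 passed in limma (1, Klrg1, had an unadjusted p under 0.05), and all Rora probe sets, Icos, Klrg1 and Il5 had means at or under 5 in both groups. Of 5 T and NKT cell markers 2 fell (5.24 to 5.26 in K313 and 5.73 to 5.80 in WT), and Cd3e, Cd3d, Cd3g and Tbx21 had means at or under 5 in both groups. Of 4 B cell markers 2 fell (4.83 to 5.21 in K313 and 6.27 to 6.50 in WT), with Pax5 near the low end. Of 6 epithelial markers Cdh1 alone rose, and Epcam, Krt18, Dclk1 and Pou2f3 had means at or under 5 in both groups (mean level of the list 3.96 to 4.22 in K313 and 3.64 to 3.97 in WT). Prss34, a basophil protease that rose while 6 of its list fell, read 12.62, 12.51 and 11.97 in K313 and 8.69, 8.12 and 8.36 in WT. The part of any of these cells in the Il17rb values was not tested.

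The neighbours' own pathways were also read. Of 13 measured INO80 complex genes besides Actr8, 0 passed in limma (0 at an unadjusted p under 0.05), where 7.75% of all probe sets did. Their differences were -0.37 to 0.19. Of 26 probe sets of 22 genes for choline uptake, betaine and phosphatidylcholine enzymes, 1 rose and 2 fell (11.5%), with a median of -0.11. Pemt has several of these probe sets, with differences of -0.25 to -0.14, which weigh on that median. Flvcr1, a choline transporter, changed by 0.64 ± 0.17 (limma adjusted p = 0.0403), Chpt1, a cholinephosphotransferase, by -0.88 ± 0.22 (0.0327) and Pcyt1b by -0.83 ± 0.22 (0.043), the last at levels near the low end in both groups. Leaving out 1 array at a time gave 0 or 1 call in this list. Flvcr1 was lost in every such fit (limma adjusted p up to 0.175), Chpt1 in each but the fit without K313 replicate 1 (up to 0.138) and Pcyt1b in each but the fit without K313 replicate 3 (up to 0.177). Aldh7a1, the betaine aldehyde dehydrogenase that acts after Chdh, named after its values were seen, differed by 0.48 ± 0.20 (limma adjusted p = 0.228).

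Of 16 calcium channel subunit genes besides Cacna1d, 1 fell and 0 rose (6.25%, against 7.75% of all probe sets). This was Cacnb2, an auxiliary beta subunit, which read 7.75, 7.36 and 7.93 in K313 and 9.24, 9.0 and 9.23 in WT (difference -1.48 ± 0.18, limma adjusted p = 0.00032). Of 20 genes of FGF receptors and ERK feedback, the pathway that Il17rd is known to restrain, 3 fell and 0 rose (15%), with a median of -0.10. The receptor genes Fgfr1, Fgfr2 and Fgfr4, named after their values were seen, had means at or under 5 in both groups. Fgfr3 lay close to the array medians (5.38 in K313 and 5.53 in WT). Whether FGF receptor signalling differed was not tested. The ERK phosphatases Dusp5 and Dusp4 fell by 1.34 ± 0.17 and 1.10 ± 0.21 (limma adjusted p = 0.000339 and 0.00657) and the adaptor Grb2 fell by 0.93 ± 0.17 (0.00482 in limma). Dusp4 reached levels near the low end in K313. Dusp6, another ERK phosphatase, named after its values were seen, lay on the other side, with 11.23, 11.58 and 11.84 in K313 and 10.56, 10.70 and 11.13 in WT. All K313 arrays were above all WT arrays, and its difference of 0.75 ± 0.21 just missed the threshold (limma adjusted p = 0.0511). It passed in 6 of 13 alternatives (limma adjusted p from 0.0252 to 0.291).

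**Figure D5:**
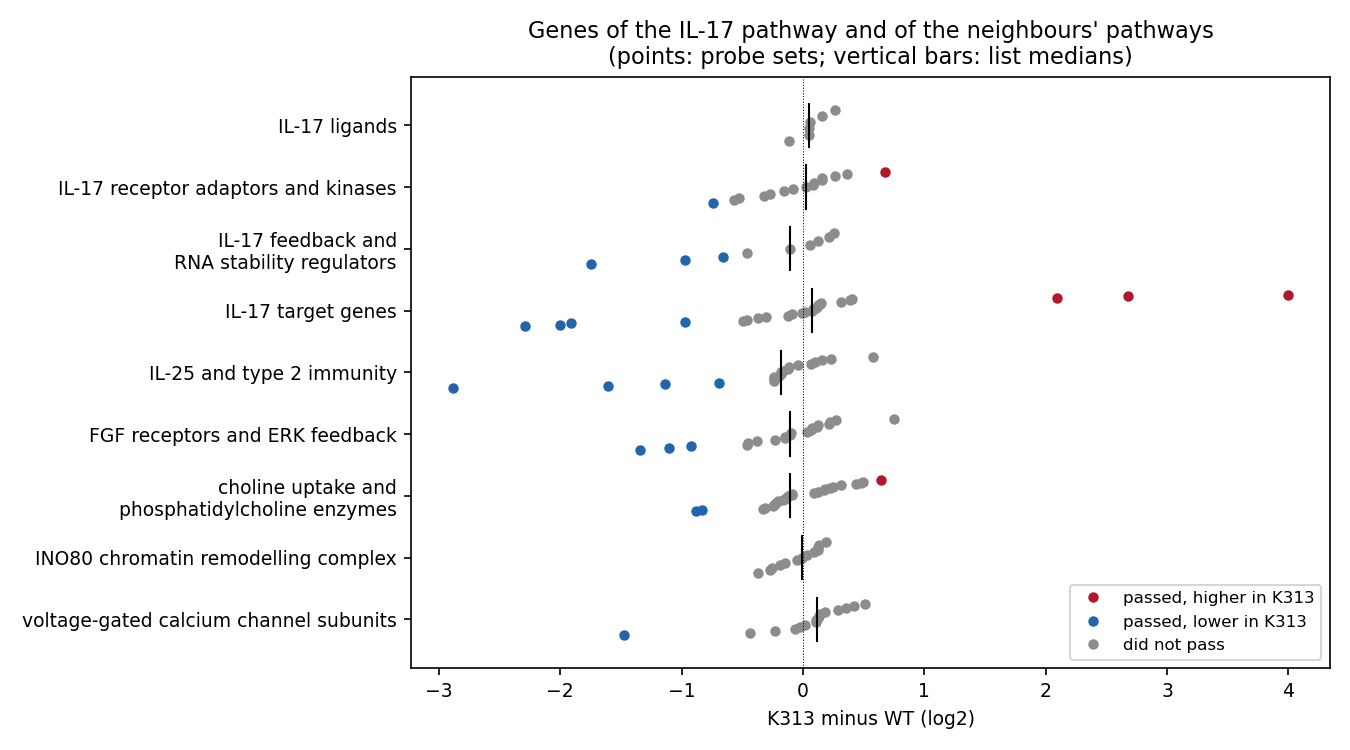
Difference K313 minus WT (horizontal axis, log2) of every measured probe set in each gene list (rows), red where it passed and was higher, blue where it passed and was lower, grey otherwise, with a bar at each list's median. No ligand passed, IL-17 target genes run from -2.29 to 4.0, and the list medians lie between -0.18 and 0.12.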

How the data were processed

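The deposited log2 values, 1 column per array, were made with RMA and the Transcriptome Analysis Console, per the submitters' processing notes; versions and the build of the array design are not given in the sources used here. RMA puts the arrays on a common scale, which hides any shift in RNA content per cell. Of 22206 probe sets, 19572 have 1 symbol in the platform annotation, 0 have several and 2634 have none.

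From these values limma 3.58.1 (R 4.3.3; lmFit, eBayes, group as the only term, two-sided) was fitted to the whole table, with Benjamini-Hochberg adjustment over all probe sets and a threshold of 0.05; differences are K313 minus WT. Tested on simulated data made for K313 against WT (22206 probe sets), the fit recovered 4% of 50 changed probe sets at a log2 change of 0.5, 84% at 1 and 100% at 2, with 14 false calls among 158. The simulated noise was normal, with the fit's own variances. Far fewer probe sets were changed than the 1720 called here, so these rates need not hold for the real comparison. The number of arrays, 3 per group, limits the precision (median SE 0.18).

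The members and lists were chosen with earlier results of these data known. List, marker and neighbour counts are to be read beside the 7.75% of all probe sets that passed. Named were all members, the ligands, up to 6 called genes per list by p, called neighbours, and the nearest genes in pattern; others are marked. RefSeq tables of GRCm38.p6 gave gene order and promoter windows. Alternatives were quantile normalization, a common median, the lowest 30% of probe sets left out, array weights, a robust prior with an intensity trend, ordinary variance, a replicate block and leaving out each array. No scan date or other batch is labelled.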

Additional observations from a re-analysis of the deposited data

How the results depend on the processing

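The differences of Il17rb, Chdh and Il17ra kept their direction in all 13 alternatives. Leaving out 1 array at a time gave 5.20 to 5.63 for Il17rb, 3.34 to 3.63 for Chdh, -1.04 to -0.80 for Il17ra and -0.16 to -0.08 for Actr8. Il17rd, Il17re and Cacna1d had no value once the lowest 30% of probe sets was left out. Aligning the array medians moved Actr8 to -0.20, more than its replicate spread. The adaptor and kinase list, with 2 calls, had 1 with quantile normalization, 1 with a common median, 1 with an intensity trend, 1 with the replicate block and 0 with ordinary variance. With ordinary variance, which has few degrees of freedom at 3 arrays per group, 496 probe sets passed in place of 1720. Calls then numbered 0 in the feedback list, 1 among the targets, 1 in the FGF list and 0 in the choline list. Cacnb2, the 1 call among calcium channel subunits, and Il4 of the type 2 list were also lost (ordinary-variance fit, adjusted p = 0.0544 and 0.159). Leaving out 1 array at a time gave 1228 to 1465 probe sets in all, 0 to 1 calls among adaptors and kinases, 1 to 2 in the feedback list and 0 to 1 in the choline list. The FGF list had 4 calls in place of 3, Dusp6 being the addition, with quantile normalization, the lowest 30% left out, an intensity trend, the replicate block, and without WT replicate 3 or K313 replicate 1. Replicate numbers did not pair the arrays: deviations of same-numbered arrays correlated at -0.06, 0.03 and -0.06. With the replicate block 1546 probe sets passed. Of 23 called list genes and neighbours named, 0 reversed, 19 missed the threshold in at least 1 alternative and 11 did so in 1 other than ordinary variance; the causes were not tested.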
